A study of Danio rerio with 18 samples.

Results

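The MHC class I genes of zebrafish and the beta-2-microglobulin genes were followed across the livers of 3 wild-type laboratory strains, TU (Tuebingen), WIK and AB. Members were all array probes whose accession belongs to a gene with a symbol or older symbol that starts with mhc1, together with the probes of *b2m* and *b2ml*. These were 22 probes of 10 genes, out of 43603 probes and 13583 named genes on the array. Of the 10 genes, 7 are class I heavy chain genes (*mhc1uba*, *mhc1uia*, *mhc1zba*, *mhc1zca*, *mhc1zda*, *mhc1zea* and *mhc1laa*), 2 are light chain genes (*b2m* and *b2ml*) and 1, *tapbp.1*, encodes the chaperone tapasin. *tapbp.1* entered only because older names of it start with mhc1, so counts are also given for the 20 probes of the other 9 genes. Of 23 genes in the RefSeq gene table whose current symbol meets the rule, 15 had no matched probe, among them *mhc1uka*, *mhc1ula* and *mhc1uma* of the same lineage as *mhc1uba*. *mhc1uia* and 1 of the 4 *mhc1zba* probes were named only by the study's own supplementary lists. Those lists hold transcripts found to differ between strains or sexes in these same data.

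Liver RNA of 18 untreated adults was hybridised to one-colour Agilent arrays, 3 males and 3 females each of TU, WIK and AB. By the labels the fish were 12 to 18 months old, and all were second-generation offspring, raised in one facility, of embryos from a stock centre. The labels name no transgene or engineered deletion for any group, and the strains were kept in-house by random single-pair crosses. The paper states that such strains differ in copy number variants. Whether a strain lacks any member gene was not examined. AB livers were taken in the morning and TU and WIK livers in the afternoon, so collection time and strain cannot be told apart where AB is compared. No slide held both WIK and AB fish, so no difference between these strains could be read within a slide.

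Class I molecules carry peptides from inside the cell to its surface, where T cells read them. Each has a heavy chain, which holds the peptide, and a light chain, beta-2-microglobulin, without which most heavy chains do not reach the surface. Peptides are cut by the immunoproteasome, pumped into the endoplasmic reticulum by the TAP transporter and loaded with the help of tapasin. Fish heavy chain genes form lineages named by a letter after mhc1, and the U lineage holds the classical genes, which in zebrafish lie among genes of antigen processing in a region whose gene content varies between haplotypes. In the RefSeq gene order *mhc1uba* lies between *tapbp.2* and *psmb13a*, with *psmb8a* as the next gene. *tapbp.1* is 1 gene from *mhc1uka* in the same stretch, whereas *mhc1zea*, *mhc1zda*, *mhc1zca* and *mhc1zba* stand side by side elsewhere.

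All 14 measured hepatocyte markers were well above background on every array. By mean correlation over all probes, TU female 3 was closer to the TU males (0.955) than to the other TU females (0.921), and TU male 2 was closer to the TU females (0.948) than to the other TU males (0.934). The other 16 fish were closest to their own group. Between 44.9% and 67.3% of the spots of an array were well above background, and no spot was saturated. A level is the background-corrected, quantile-normalised log2 intensity of a probe, and since probes differ in brightness, levels are compared only within a probe. In whole liver, fewer cells of a type and less RNA per cell cannot be told apart. An array probe also reads only transcripts that match it, and whether strain differences in sequence lower its signal was not tested.

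Detection was read from the scanner software's flag for a spot well above background. Of the 22 probes, 13 were well above background on all 18 arrays, and these covered *b2m*, *b2ml*, *mhc1laa*, *mhc1zba* and 1 of the 2 probes of *mhc1uia*. Detection limited by strain, that is on 6 of 6 arrays of at least 1 strain and 0 of 6 of another, was found for 4 probes, 3 of *mhc1uba* and 1 of *tapbp.1*. Over all probes 0.633% met the same rule. Within each sex alone (3 of 3 against 0 of 3 arrays) 5 member probes met it in males, where 3.82% of all probes did, and 4 in females, where 2.94% did. With at least 5 arrays of a strain against at most 1 of another, 5 member probes met it and 2.66% of all probes. The probe added in both counts of 5 was A_15_P576003 of *mhc1uia*. It was well above background on 3 of 3 AB and 0 of 3 TU male arrays. Over both sexes it was so on 5 of 6 AB and 1 of 6 TU arrays. This probe was a member only through lists of transcripts that differed in these data, and is no independent result. By the software's looser flag, 2 member probes met the rule of 6 against 0 arrays, as did 0.323% of all probes.

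**Figure D1:**
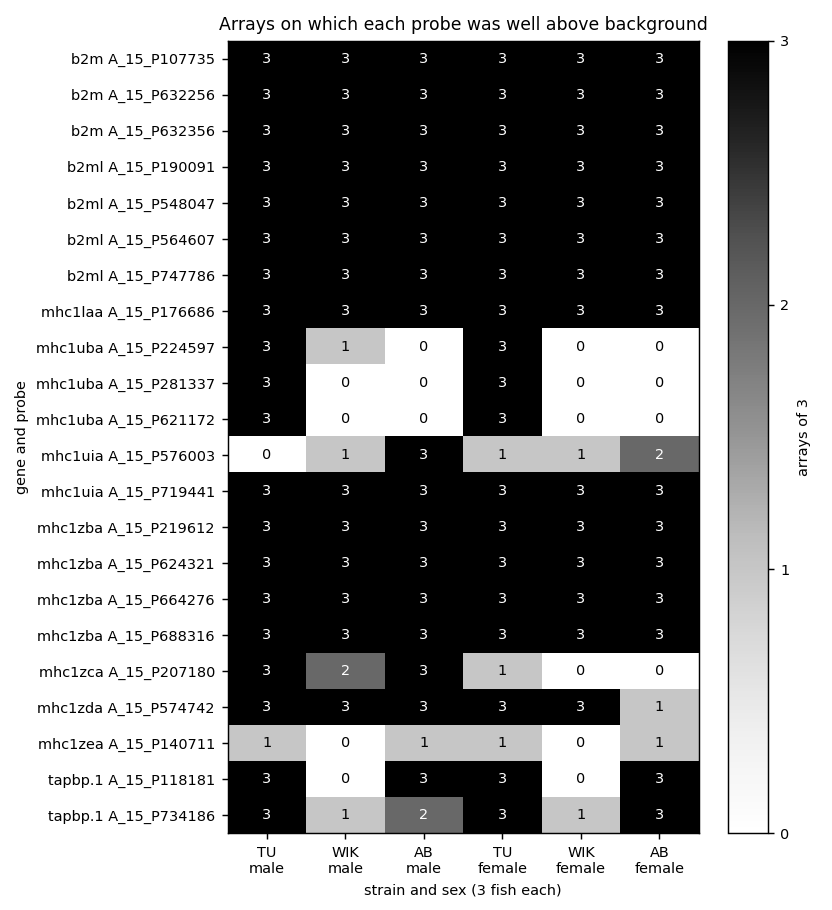
Number of arrays, of 3 in each strain and sex, on which each of the 22 probes was well above background, with genes and probes down the page and groups across. The *mhc1uba* rows read 3 in both TU groups and 0 elsewhere except for 1 WIK male, and the row of *tapbp.1* probe A_15_P118181 reads 0 only in the 2 WIK groups.

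*mhc1uba*, a classical U-lineage heavy chain gene, was read by 3 probes, and all 3 were well above background on 6 of 6 TU arrays and on 0 of 6 AB arrays. On WIK arrays the counts were 0 of 6 for probes A_15_P621172 and A_15_P281337 and 1 of 6, a male, for probe A_15_P224597. The levels of the brightest probe, A_15_P621172, were 13.14, 12.85 and 12.50 in TU males, against 5.87, 6.02 and 5.90 in WIK males and 5.96, 5.85 and 5.98 in AB males. In females of the same probe they were 11.18, 11.78 and 12.08 in TU, 5.99, 6.01 and 6.02 in WIK, and 6.01, 6.13 and 5.96 in AB. Every TU fish was thus above every WIK and AB fish, and no WIK or AB value was a measured level. The same separation of 6 TU from 6 WIK fish, with TU higher, held for 1.81% of all probes, and that of TU from AB for 2.86%.

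Because WIK and AB were not above background, the folds of *mhc1uba* are lower bounds, set against the higher of the dim probe's own level and the lowest level well above background on each array. By A_15_P621172, TU males were at least 118-fold higher than WIK males and at least 115-fold higher than AB males. TU females were at least 50.9-fold higher than WIK females and at least 50.1-fold higher than AB females. The strain F test of limma, fitted over all probes, gave this probe an adjusted p of 1.03e-05 in males, where its p ranked 1 of 43603, and of 6.07e-05 in females, where it ranked 3. Within the 2 slides that held both strains, the TU minus AB difference in males was 7.18 and 6.52, and within the 1 slide that held TU and WIK their difference was 6.83.

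The other *mhc1uba* probes gave smaller bounds and the same order. By A_15_P224597, TU males had levels of 11.26, 11.21 and 10.71, against 5.83, 5.99 and 6.09 in WIK males and 6.01, 5.98 and 5.93 in AB males. TU females had 9.74, 10.26 and 10.50 by this probe, against 5.99, 6.06 and 6.17 in WIK females and 5.79, 5.89 and 5.88 in AB females. The bounds were 33.1-fold against AB in males, and 17-fold against WIK and 18.8-fold against AB in females. Again no TU fish overlapped with a fish of another strain, and the same held for the third probe. By A_15_P281337, TU males had 10.01, 10.09 and 9.55, WIK males 5.95, 6.09 and 5.92, and AB males 6.01, 5.75 and 5.88. Females had 8.65, 9.15 and 9.25 in TU, 5.97, 6.15 and 6.07 in WIK, and 5.86, 5.81 and 5.92 in AB by this probe. Its bounds were 14.9-fold against WIK and 14.9-fold against AB in males, and 7.73-fold and 8.40-fold in females. The adjusted F p was 1.84e-05 and 6.02e-05 for these 2 probes in males and 0.000148 and 0.000235 in females. Across the 18 livers the 3 probes correlated at r of 0.997 to 0.999, a description that the gap between TU and the other strains largely sets.

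Within TU, levels of *mhc1uba* were higher in each of the 3 males than in each of the 3 females by each of the 3 probes, by 1.15 ± 0.28 (difference ± SE, log2 scale) for A_15_P621172. That difference had an adjusted p of 0.932 (limma). The share of all probes that separate 3 males from 3 females was not computed. No probe of the array passed the TU sex test, but 375 did without TU female 3 and 7 without TU male 2, none of them a member. The strain by sex interaction of the same probe had an adjusted p of 0.0574, the lowest of the members. By this probe WIK and AB had no level above background in which a sex difference could be read.

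**Figure D2:**
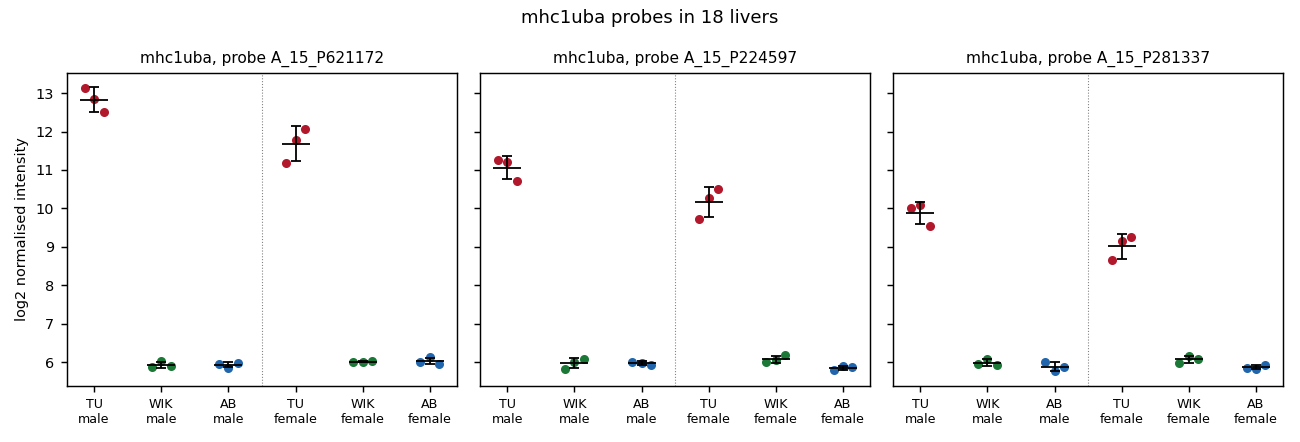
Levels of the 3 *mhc1uba* probes (log2 normalised intensity, y axis) by strain and sex (x axis). Each point is 1 fish, and bars give the mean ± SD of 3 fish. All 6 TU fish lie between 8.65 and 13.14 and all WIK and AB fish between 5.75 and 6.17.

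The strain F test called 10 of the 22 member probes in males and 7 in females (adjusted p no higher than 0.05, with 2 strains at least 2-fold apart). Over all probes 3.51% were called in males and 4.47% in females. The 7 probes called in females were all among the 10 called in males. They belonged to *mhc1uba*, *mhc1uia*, *mhc1zba*, *b2m* and *tapbp.1* in either sex. Without *tapbp.1* the counts were 8 and 6 of 20. Of the called probes, A_15_P719441 of *mhc1uia* and A_15_P664276 of *mhc1zba* entered only through the lists of transcripts that differed in these data. Their calls, in both sexes, thus follow in part from how they entered and are no independent result. Without WIK male 2, 5 member probes and 1.44% of all probes were called in males, and without TU female 3, 8 member probes and 6.75% of all probes in females.

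By direction, pairwise tests placed 8 of the 22 probes higher in TU than in AB males and 5 in females, and 0 lower in either sex. The higher probes were of *mhc1uba*, *b2m* and *mhc1zba* in males and of *mhc1uba*, *b2m* and *mhc1uia* in females. Of all probes, 0.975% were called higher and 1.16% lower in TU than in AB males, and 1.47% and 1.83% in females. The median TU minus AB difference of the members was 0.96 in males and 0.68 in females, against -0.02 and 0 over all probes. Between TU and WIK, 5 probes were higher and 1 lower in TU males (0.475% and 0.518% of all probes), and 4 were higher and 2 lower in TU females (0.507% and 0.459%). Between WIK and AB, 2 probes were higher and 1 lower in WIK in either sex, where 1.37% of all probes were higher and 1.27% lower in males and 1.23% and 2.00% in females. WIK was not the lowest strain by every probe, and the heavy chain probes did not share 1 order of strains. The probes higher in WIK than in AB were *mhc1uia* probe A_15_P719441 and *mhc1zba* probe A_15_P664276. The other probes of these genes did not follow them. Both probes, however, were members only through the lists of transcripts that differed in these data. Their share in these counts, and the order they show, are thus no independent result.

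*mhc1uia*, another U-lineage heavy chain gene, had its highest levels in WIK by probe A_15_P719441 but not by its other probe. Probe A_15_P719441 read 9.55, 8.99 and 9.98 in TU males, 11.31, 12.24 and 12.07 in WIK males, and 8.16, 9.11 and 7.22 in AB males. It read 7.64, 8.10 and 8.62 in TU females, 11.33, 11.26 and 11.58 in WIK females, and 7.20, 6.81 and 6.71 in AB females. All 6 WIK fish stood above all 12 fish of the other strains, while TU and AB overlapped. Of all probes, 1.33% had the 6 WIK fish above the 6 TU fish and 2.97% above the 6 AB fish. *mhc1uia* was a member only through lists of transcripts that differed in these data, so its tests are no independent result. WIK was higher than AB by 3.71 ± 0.50 in males (13.1-fold, pairwise adjusted p 0.00923, limma) and by 4.48 ± 0.25 in females (22.3-fold, adjusted p 0.000363).

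In *mhc1uia* the TU minus WIK difference in females was -3.27 ± 0.25 (9.61-fold lower in TU, adjusted p 0.00188, limma), a call lost with scan day as a block (0.0528) and median scaling (0.193). The WIK minus AB call in males was lost under the same settings (0.113 and 0.0806). The TU minus WIK difference in males was -2.37 ± 0.50, with a pairwise adjusted p of 0.0754. TU minus AB was 1.34 ± 0.50 in males (adjusted p 0.187) and 1.22 ± 0.25 in females (adjusted p 0.0314), and the female call was lost in 11 of 18 alternative settings. Within scan days 1 and 2, which held both strains, the WIK minus AB difference was 3.15 and 3.14 in males and 4.12 and 4.44 in females. These fish were on separate slides. The second probe of *mhc1uia*, A_15_P576003, did not follow this pattern. It was well above background on 1 of 6 TU, 2 of 6 WIK and 5 of 6 AB arrays, had its highest level, 8.21, in an AB male, and was not called in either sex (adjusted F p 0.195 in males). The 2 probes, which carry the same accession, correlated at r of -0.095 over the 18 livers.

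*mhc1zba*, a heavy chain gene of the Z lineage, was read by 4 probes, of which 1 differed from the other 3. Probe A_15_P664276, named through the supplementary lists from a clone accession, read 9.08, 9.52 and 9.98 in TU males, 11.83, 12.15 and 11.50 in WIK males, and 7.98, 9.38 and 8.58 in AB males. In females it read 8.31, 9.09 and 9.07 in TU, 11.37, 11.94 and 11.66 in WIK, and 7.81, 8.72 and 9.03 in AB. WIK again lay above all TU and AB fish without overlap. The 6 WIK fish lay above the 6 TU fish in 1.33% of all probes and above the 6 AB fish in 2.97%. This probe, however, was a member only through a list of transcripts that differed in these data.

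For A_15_P664276 the WIK minus AB difference was 3.18 ± 0.38 in males (9.08-fold, adjusted p 0.00644, limma) and 3.14 ± 0.35 in females (8.80-fold, adjusted p 0.00390). TU was lower than WIK by a log2 difference of -2.30 ± 0.38 in males (adjusted p 0.0340) and -2.84 ± 0.35 in females (adjusted p 0.0120). The male call was lost without any one of TU males 1 and 3 or WIK males 1, 2 and 3, with differences of -2.53 to -2.08. TU minus AB was 0.88 ± 0.38 in males and 0.30 ± 0.35 in females, neither past the test.

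The other 3 *mhc1zba* probes share 1 RefSeq accession and had their highest mean in TU males. A_15_P624321 read 12.38, 11.83 and 12.07 in TU males, 10.64, 11.09 and 10.72 in WIK males, and 10.78, 11.37 and 10.54 in AB males. In females it read 11.36, 11.21 and 11.04 in TU, 10.01, 11.03 and 10.60 in WIK, and 10.40, 10.62 and 10.89 in AB. The 3 TU males stood above all other males by this probe, a separation whose share over all probes was not computed. Its TU minus AB difference in males was 1.20 ± 0.24 (adjusted p 0.0411, limma), a call lost in 11 of 18 alternative settings, and it was not called in females. A_15_P688316 and A_15_P219612 were called in neither sex by the F test (adjusted F p 0.0744 and 0.150 in males). The pairwise TU minus AB difference of A_15_P688316 in males was 1.25 ± 0.27 (adjusted p 0.0489, limma). A_15_P688316 is thus among the probes counted as higher in TU than in AB males. These 3 probes correlated with each other at r of 0.676 to 0.879, and with A_15_P664276 at -0.163 to 0.382.

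**Figure D3:**
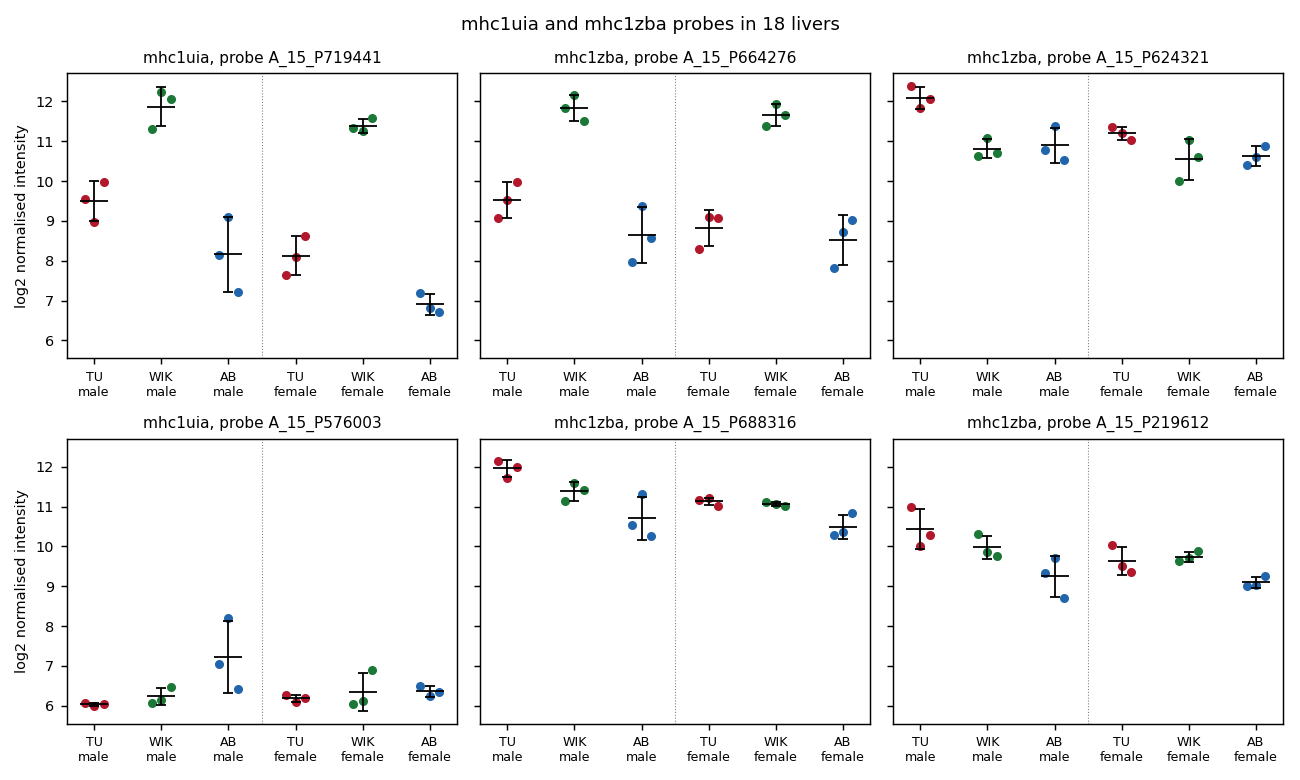
Levels of the 2 *mhc1uia* and 4 *mhc1zba* probes (log2 normalised intensity, y axis) by strain and sex (x axis), with 1 point a fish and the mean ± SD of 3 fish as bars. Probes A_15_P719441 and A_15_P664276 show the 6 WIK fish, at 11.26 to 12.24 and 11.37 to 12.15, above all others, and the other 4 probes do not.

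*mhc1zca*, *mhc1zda* and *mhc1zea*, further Z-lineage genes, were dim, with all levels between 5.85 and 6.75. *mhc1zda* was well above background on 6 of 6 TU, 6 of 6 WIK and 4 of 6 AB arrays, *mhc1zca* on 4, 2 and 3, and *mhc1zea* on 2, 0 and 2. None of the 3 was called between strains or sexes, and at these levels a difference would be compressed by the background offset.

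*b2m*, the light chain gene shared by class I molecules, was well above background in all fish by each of its 3 probes, and TU had the highest mean by each. Probe A_15_P632356 read 12.95, 12.57 and 12.74 in TU males, 11.35, 12.18 and 11.73 in WIK males, and 10.37, 11.30 and 9.42 in AB males. It read 11.89, 11.95 and 11.52 in TU females, 11.08, 11.32 and 11.02 in WIK females, and 9.29, 10.50 and 10.43 in AB females. Within each sex TU lay above WIK, and WIK above AB, with no overlap of the ranges. The share of all probes that separate in this way with 3 fish a group was not computed. TU was higher than AB by 2.39 ± 0.45 in males (5.25-fold, adjusted p 0.0317, limma) and by 1.71 ± 0.31 in females (3.28-fold, adjusted p 0.0207).

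The TU minus WIK difference of this *b2m* probe was 1.00 ± 0.45 in males and 0.65 ± 0.31 in females, and WIK minus AB was 1.39 ± 0.45 and 1.07 ± 0.31, none past the test. The male TU minus AB call was lost without AB male 1, TU male 1, TU male 3 or any WIK male, with adjusted p of 0.0538 to 0.105 at differences of 2.29 to 2.40, with the replicate block (adjusted p 0.0508), scan day as a block (0.0825) and median scaling (0.124). The female call was lost without TU female 1 (0.0677) or TU female 2 (0.0682), with the processed signal (0.0696) and with median scaling (0.141). Within the 2 slides that held TU and AB the difference was 2.58 and 3.33 in males and 2.60 and 1.096 in females.

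The other 2 probes of *b2m* read a second accession. A_15_P107735 read 13.10, 12.74 and 13.19 in TU males, 11.95, 12.43 and 12.37 in WIK males, and 11.18, 11.70 and 11.57 in AB males. It was called in males, with TU higher than AB by 1.53 ± 0.19 (2.88-fold, adjusted p 0.00948, limma), a call lost with scan day as a block (0.0525) and median scaling (0.102), and not in females, where the difference was 1.02 ± 0.33 (adjusted p 0.139). In females it read 12.06, 11.99 and 11.88 in TU, 11.16, 11.67 and 11.71 in WIK, and 10.15, 11.23 and 11.51 in AB. All 6 TU fish stood above all 6 AB fish, as they did for 2.86% of all probes.

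The brightest *b2m* probe, A_15_P632256, read 15.53, 14.94 and 15.30 in TU males, 14.60, 14.88 and 14.20 in WIK males, and 14.10, 14.41 and 14.16 in AB males. It read 14.03, 13.87 and 13.84 in TU females, 13.83, 13.76 and 13.61 in WIK females, and 12.79, 13.56 and 13.21 in AB females. TU and AB did not overlap within either sex, a separation whose share over all probes was not computed. This probe had a TU minus AB difference of 1.04 ± 0.21 in males and 0.73 ± 0.18 in females, with adjusted F p of 0.0572 and 0.0936. Its pairwise adjusted p in males was 0.0404, so it is among the probes counted as higher in TU than in AB males although the F test missed. The 3 probes correlated at r of 0.772 to 0.895 over the 18 livers.

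*b2ml*, the second light chain gene, was read by 4 probes of 1 accession, all well above background in all fish. None was called between strains in either sex. In females the TU minus AB difference was 0.72 to 0.85 over the 4 probes, with adjusted F p of 0.0643 to 0.198. The probes disagreed in males, from -0.34 for A_15_P564607 to 1.31 for A_15_P190091, with adjusted F p of 0.267 to 0.739 over the 4 probes. In males the levels of A_15_P548047 were 13.22, 12.67 and 12.65 in TU, 12.44, 12.48 and 12.38 in WIK, and 11.87, 12.72 and 11.76 in AB, which overlap. A miss of the threshold does not show that the strains had equal *b2ml*.

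*tapbp.1* encodes tapasin, which holds empty class I molecules at the peptide transporter. Probe A_15_P118181 was well above background on 6 of 6 TU, 0 of 6 WIK and 6 of 6 AB arrays. It read 9.36, 10.07 and 9.67 in TU males, 6.04, 6.08 and 6.002 in WIK males, and 8.40, 9.39 and 8.67 in AB males. In females it read 9.86, 9.20 and 8.95 in TU, 6.03, 6.01 and 6.25 in WIK, and 8.34, 8.90 and 9.25 in AB. The signal was thus at background in WIK and above it in AB, where that of *mhc1uba* was at background in both. Of all probes, 3.79% had all 6 WIK fish below all 6 AB fish.

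By this *tapbp.1* probe TU was at least 12.7-fold higher than WIK in males and at least 9.42-fold higher in females, and the adjusted F p was 0.00153 and 0.00202 (limma). AB was at least 6.87-fold higher than WIK in males and at least 6.65-fold higher in females. TU minus AB was 0.88 ± 0.27 in males and 0.50 ± 0.28 in females, neither past the test. The dimmer probe A_15_P734186 was well above background on 6 TU, 2 WIK and 5 AB arrays and read 7.05, 7.14 and 7.06 in TU males, 5.94, 6.08 and 6.18 in WIK males, and 6.52, 6.66 and 6.10 in AB males. In females it read 7.63, 6.51 and 6.56 in TU, 6.06, 6.01 and 6.30 in WIK, and 6.79, 6.803 and 6.90 in AB, with TU and AB overlapping. It was called only in males, where TU was higher than WIK by 1.02 ± 0.14 (adjusted p 0.0185), a call lost in 7 of 18 alternative settings.

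**Figure D4:**
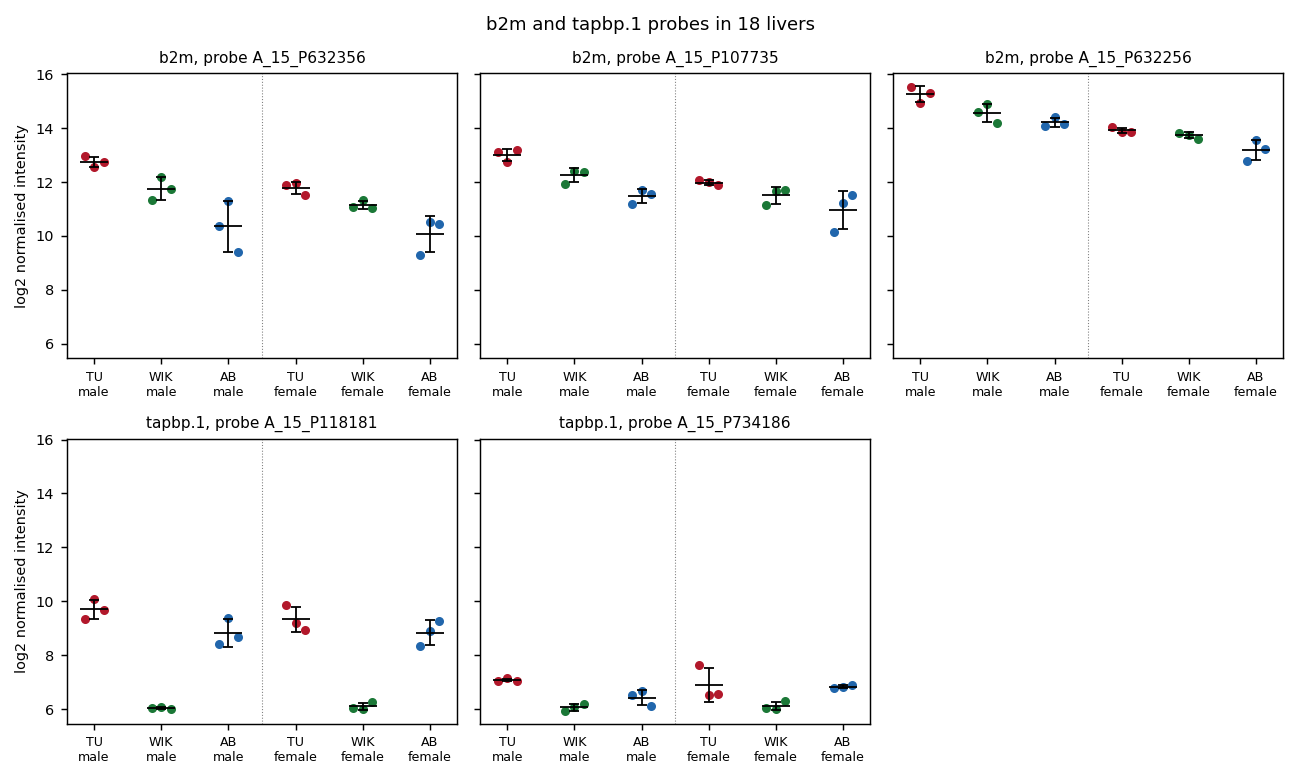
Levels of the 3 *b2m* and 2 *tapbp.1* probes (log2 normalised intensity, y axis) by strain and sex (x axis), with 1 point a fish and the mean ± SD of 3 fish as bars. TU has the highest mean of each sex in all 3 *b2m* panels, and for *tapbp.1* probe A_15_P118181 the 6 WIK fish lie at 6.002 to 6.25.

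*mhc1laa*, the L-lineage heavy chain gene with a probe, was the only member called between the sexes. Its levels were 6.63, 6.91 and 6.997 in TU males against 7.24, 7.21 and 7.25 in TU females. They were 7.05, 6.998 and 7.24 in WIK males against 7.91, 8.09 and 8.34 in WIK females, and 6.50, 6.76 and 6.51 in AB males against 7.74, 7.61 and 7.94 in AB females. Males were below females in each strain without overlap, a separation whose share over all probes was not computed. The male minus female difference was -1.02 ± 0.13 in WIK (adjusted p 0.0269, limma) and -1.17 ± 0.12 in AB (adjusted p 0.0150), and -0.39 ± 0.11 in TU (adjusted p 0.932). The interaction test called no member, so that a difference between strains in this sex effect was not shown.

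In all, 1 of 22 members was called between the sexes in WIK and in AB, where 1.37% and 2.02% of all probes were called, and 0 in TU, where 0% were. At an unadjusted p under 0.05 the counts were 12 of 22 in TU, 10 in WIK and 6 in AB, where 4.10%, 15.0% and 17.6% of all probes passed. With 18 arrays in 1 fit, 2 members and 22 of all probes were called in TU. The call of *mhc1laa* in WIK was lost without WIK male 1, WIK male 2, WIK female 2 or WIK female 3, and that in AB without AB male 1, AB female 1 or AB female 2. In those fits the calls over all probes also fell, to 140, 87, 334 and 476 of 597 in WIK and to 383, 357 and 196 of 880 in AB. No member was called higher in males, although 19 of 22 probes had a higher mean in males in TU, 14 in WIK and 17 in AB, against 46.8%, 53.3% and 49.7% of all probes. These counts include probes at background, such as those of *mhc1uba* in WIK and AB. Several probes read the same gene, so they are not independent directions. The interaction was called for 0 members, while 0.523% of all probes were, and 6 members had an unadjusted p under 0.05 (limma), as had 10.4% of all probes. Leaving out TU male 3 or TU female 3 gave 2 interaction calls among the members (0.385% and 1.15% of all probes), and TU male 2 gave 1 (3.00%).

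**Figure D5:**
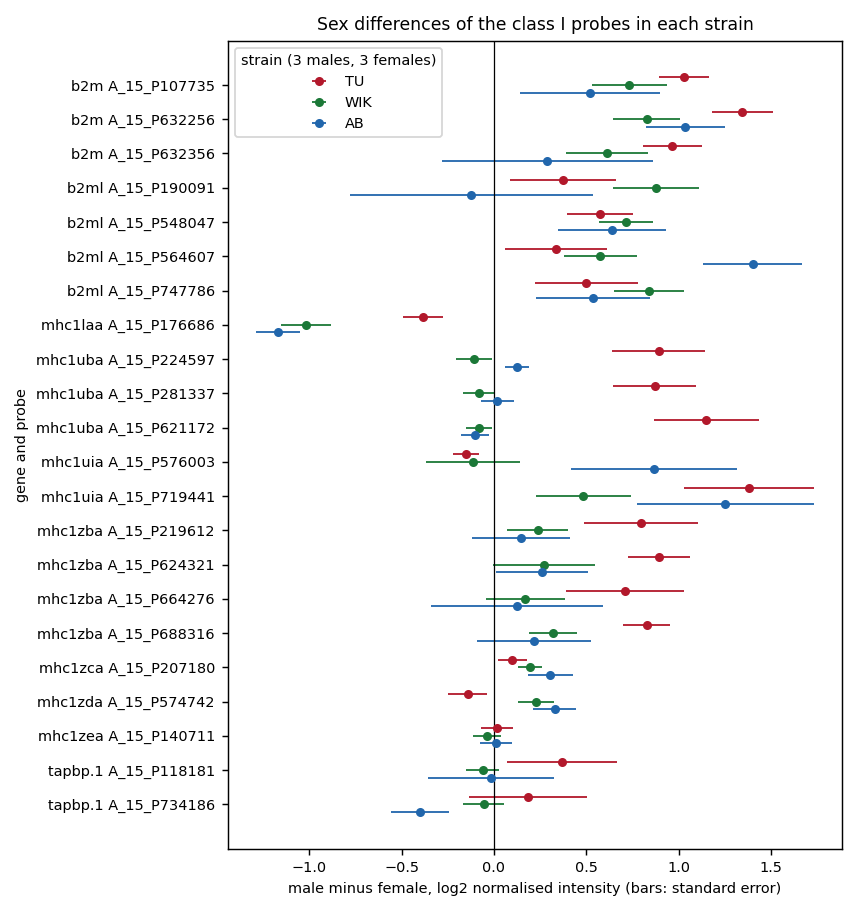
Male minus female difference of each probe (x axis, log2 normalised intensity) in TU, WIK and AB, with genes and probes down the page. Points are differences of 3 males and 3 females and bars their standard errors. *mhc1laa* is below 0 in all 3 strains, and the *b2m* probes are above 0 in all 3.

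Genes that process and load class I peptides were followed as a list of 35, of which 22 had a probe, *tapbp.1* included. The strain F test called 9 of the 22 in males and 6 in females, against the 3.51% and 4.47% of all probes given above. *psmb11a* and *psmb11b* were well above background on 0 arrays, and the other 20 on at least 3. Of probes with that signal 4.93% and 6.29% were called, but *psmb8a*, *erap2* and *tapbp.1* reached it only through the strains in which they were higher. Without *tapbp.1*, 8 and 5 were called. TU was higher than WIK for 8 genes in males and 4 in females (0.475% and 0.507% of all probes) and lower for 0. WIK was lower than AB for 4 genes in males and 5 in females (1.27% and 2.00% of all probes) and higher for 0. TU was higher than AB for 3 genes in males and 1 in females (0.975% and 1.47% of all probes). The median TU minus WIK difference of the 22 was 1.30 in males and 0.67 in females, against -0.02 and 0.01 over all probes.

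Among the genes beside *mhc1uba*, *psmb8a*, an immunoproteasome subunit, was well above background on 6 of 6 TU and 0 of 6 WIK and AB arrays, as 2 of the 3 *mhc1uba* probes were. Its mean level was 8.94 in TU males, 6.06 in WIK males and 6.02 in AB males, and 7.78 in TU females, 6.05 in WIK females and 6.02 in AB females (adjusted F p 0.000117 and 0.0336, limma). *psmb13a*, the gene between them, had a TU minus AB difference of 1.46 in males and 0.33 in females and was not called (adjusted F p 0.112 and 0.773). *tapbp.2*, a second tapasin gene, and the immunoproteasome subunits *psmb9a* and *psmb12* were lower in WIK than in TU. Their TU minus WIK differences were 1.94, 3.16 and 3.59 in males and 1.74, 1.66 and 2.33 in females, all past the test. Their WIK minus AB differences were -0.90, -2.19 and -2.55 in males and -1.55, -1.46 and -2.05 in females, past the test except for *tapbp.2* in males (adjusted p 0.110, limma). *tapbp.2* was well above background on only 3 of 6 WIK arrays and *psmb9a* on 4 of 6. The WIK levels of these genes thus lay in part at background.

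Other genes of the list were called in 1 sex only, and that the sexes differ there was not tested. *psme2*, a subunit of the proteasome activator, was higher in TU males than in WIK males by 1.29, past the test, and its TU minus AB difference of 0.95 was under 2-fold. *irf1b*, a transcription factor gene of the interferon response, was higher in TU males by 2.90 and 3.12 than in WIK and AB males, and *erap1b*, a peptide-trimming aminopeptidase, by 1.17 and 1.08. *calr3b*, a calreticulin, was lower in WIK males than in AB males by a log2 difference of -1.63, and *calr*, another, lower in WIK females than in AB females by -4.78. *calr* was well above background on only 3 of 6 WIK arrays. The transporter gene *tap2a* was not called (adjusted F p 0.0772 in males).

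Of 15 interferon response genes with a probe, 2 were called in males, *irf7* and *gbp1*, and 2 in females, *socs1a* and *gbp1*. Over all probes 3.51% were called in males and 4.47% in females. The median TU minus AB difference of the 15 was 0.17 in males and -0.15 in females, against -0.02 and 0 over all probes. *gbp1*, a guanylate-binding protein gene, was higher in WIK than in AB by 4.48 in males and 3.33 in females. Its TU minus AB difference was 2.95 in females, past the test, and 3.42 in males (pairwise adjusted p 0.0508, limma). *irf7* was higher in TU than in AB males by 1.82, and *socs1a* higher in TU than in WIK and AB females by 2.67 and 2.34.

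Markers of leukocytes, which are rich in class I molecules, were summed. The summed signal of the 15 measured leukocyte markers was 5760 to 14700 in TU males, 4770 to 7320 in WIK males and 2300 to 3690 in AB males, on the linear intensity scale. It was 7560 to 16900 in TU females, 7720 to 10700 in WIK females and 3730 to 5370 in AB females. A linear sum is weighted to its brightest markers, here *cd74a* and *cd74b*, neither of them called in either sex. Of 13 markers with signal, 3 were called in males (*lcp1*, *coro1a* and *mpeg1.1*, TU higher than AB by 1.53, 1.51 and 1.04) and 0 in females (limma). Of all probes well above background on at least 3 arrays, 4.93% were called in males and 6.29% in females. The brightest, *cd74a*, had means of 12.26, 11.60 and 10.40 in TU, WIK and AB males and of 12.91, 12.38 and 11.15 in females and was not called, while *lyz* had a TU minus AB difference of 0.05 in males and -1.27 in females. *pax5* and *rag1* were well above background on 0 arrays. The 12 exocrine pancreas markers summed to 86700 to 1750000 in TU males, 294000 to 2280000 in WIK males and 12700 to 18600 in AB males, and in females to 190000 to 811000 in TU, 70600 to 502000 in WIK and 39100 to 134000 in AB. The strain F test called 4 of these 12 in males and 0 in females. The summed signals of both lists were lowest in AB, as *b2m* was, although the pancreas sums of WIK and AB females overlapped. Not every leukocyte marker followed its sum. In males the means of *spi1b*, *zap70* and *cd8a* were lowest in WIK and that of *cd4-1* in TU. The part of either list in the strain difference of *b2m* was not tested.

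The named genes whose pattern over the 18 livers was most like that of *mhc1uba* probe A_15_P621172, by Pearson's r, were *ggact.2* (0.993), *ggact.1* (0.993), *fam221a* (0.981), *LOC100002392* (0.974) and *btr29* (0.967). All 5 were well above background on 6 of 6 TU arrays, and *ggact.2*, *fam221a* and *LOC100002392* on 0 of 6 WIK and AB arrays. *ggact.2* had means of 8.63 in TU males, 5.89 in WIK males and 5.95 in AB males, and *ggact.1* of 9.99, 6.05 and 6.03. For the brightest *b2m* probe they were *tmem184a* (0.917), *sft2d2b* (0.891), *lrrc1* (0.881), *tor1l3* (0.878) and *xaf1* (0.868). The points share strain and sex, so these values describe and do not test.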

How the data were processed

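Liver RNA of 18 zebrafish was measured on one-colour arrays. The authors deposited, per array, Feature Extraction output whose median spot and background intensity values are linear and not normalized between arrays, and a table of log2 values, 1 per accession, which they had background-corrected and normalized in limma and which served here only as an alternative. Background was corrected with normexp (offset 50), arrays were quantile-normalized, outlier spots and 1417 control spots left out, giving 43603 probes (limma 3.58.1, R 4.3.3; figures with matplotlib 3.10.9). Strains were compared by limma's F test within each sex and sexes within each strain. Calls needed a Benjamini-Hochberg adjusted p of at most 0.05 over all probes and a 2-fold difference. The interaction used all 18 arrays. The steps were tested on simulated data.

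Members and lists were chosen with earlier results of these data known. Named genes were all members, with the value of each fish for probes called in either sex or limited by strain, and the 5 other genes most like *mhc1uba* and *b2m*. List genes named were those called, next to a member or chosen after their values were seen (*tap2a*). A list gene was represented by its brightest probe well above background on at least 3 arrays. Names came through RefSeq accessions (26043 probes) and supplementary lists, for 26315 probes (60.4%). The RefSeq table is of another assembly than the array annotation, so no coordinates were used.

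Median spot signal was 36 to 70.5 per array against a background of 22 to 32, which limits dim probes, and 3 fish per group limit the precision. Fish are separate animals. Shares of all probes whose ranges did not overlap were computed for 6 fish a strain only. A lack of overlap within a sex or between the sexes, with 3 fish a group, has no such share beside it. Same-numbered males and females of a strain shared a slide. Deviations of same-numbered fish correlated above 0.1 in every pair only for the sexes of WIK (0.114 to 0.199), TU against WIK and, in females, TU against AB. In WIK the block left the count of sex calls at 1.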

Additional observations from a re-analysis of the deposited data

How the results depend on the processing

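The strain counts of 10 probes in males and 7 in females stayed within 1.5 times under most settings tried. The exceptions were scaling to the array median (5 in males, 4 in females) and scan day as a block (5 in males). Calls over all probes fell as well, to 541 of 1529 and 506 of 1950 with median scaling and to 716 in males with scan day as a block. Leaving out 1 fish gave 5 to 11 in males (1.44% to 6.42% of all probes), the lowest without WIK male 2. In females it gave 6 to 8 (2.13% to 6.75%). With replicate number as a block the counts were 8 in males (2.8% of all probes) and 7 in females (5.14%). For the sexes in TU, WIK and AB they were 0 (0%), 1 (0.748%) and 0 (0.745%), and for the interaction 0 (0.394%). The block result in AB was the loss of *mhc1laa*, which was called there without the block.

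Sex calls changed as follows. In TU the count was 2 with 1 fit of 18 arrays (0.0505% of all probes) and 0 with any fish left out (0% to 0.86%). In WIK it was 0 with the scanner software's processed signal (0.702% of all probes), with median scaling (0.179%) and at 4-fold (0.502%). With a fish left out it was 0 to 2 in WIK (0.2% to 2.16%). In AB it was 2 with a normexp offset of 16 (3.16% of all probes) and without dim probes (2.59%). It was 3 there with 1 fit of 18 arrays (3.69%), 0 at 4-fold (0.771%), and 0 to 2 with a fish left out (0.45% to 2.7%). Interaction calls ran from 0 to 2 with a fish left out (0.25% to 3.0% of all probes). Detection limited by strain stayed at 4 probes with any fish left out, but under its rule leaving out a fish can raise this count and cannot lower it. It came to 2 with the scanner's looser flag (0.323% of all probes) and 5 with at least 5 against at most 1 array (2.66%). The probe added there was A_15_P576003 of *mhc1uia*, a member only through the supplementary lists.

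No direction of a called member contrast reversed under any setting. *mhc1uba* was called by all 3 probes against WIK and AB in every setting, except that median scaling lost A_15_P224597 (adjusted p 0.0571) and A_15_P281337 (0.0987) against WIK in females. By A_15_P621172 the TU minus AB difference in males was 6.90, with 8.10 at a normexp offset of 16, 12.06 with the processed signal and 6.74 without TU male 1. Median scaling also lost the calls of *mhc1zba* probe A_15_P664276, and scan day as a block lost *tapbp.1* probe A_15_P118181 for TU minus WIK in females (0.0706) and the *mhc1zba* probe for TU minus WIK in males (0.0874). Processed-signal scaling moved the median of all probes by -0.413 to 0.596 between strains, so differences under it are relative to that shift. Probes near background carry little information at the signal of these arrays.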
